A study of Mus musculus with 4 samples.

Results

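The lipogenesis genes described here are 10 genes of fatty acid synthesis, of its supply and control, and of fat storage in the hepatocyte. They were listed by name and not by a rule on measured values, though with earlier results of these data known. They are Acly, Acaca, Acacb, Fasn, Elovl6, Scd1, Me1, Srebf1, Thrsp and Pnpla3, out of 32285 mouse genes in the count matrices. All 10 were detected in every library. They were followed in hepatocyte nuclei of mouse liver by single-nucleus RNA sequencing, which counts unique molecular identifiers (UMIs, each standing for 1 captured RNA molecule) in nuclei from frozen tissue. There were 4 libraries, 1 per group, so no difference between diets or injections has a replicate within its group. The groups were a CD control, a CD oncogene, an LPD control and an LPD oncogene library. All were livers of young adult Bl/6 mice kept on a chow diet (CD) or a low-protein diet (LPD) for 1 week. The mice were then given a hydrodynamic tail vein injection with Sleeping Beauty transposase and kept on the same diet for 2 weeks more. In the oncogene groups the injected plasmids carried human c-MET and an activated human β-catenin lacking its N-terminal part, and in the control groups they carried the vector alone; all mice were fasted before the liver was taken. The LPD held less protein and more carbohydrate than the CD. Hydrodynamic delivery reaches only some hepatocytes, so an oncogene library holds mostly nuclei without the transgenes, and the number of mice behind a library is not given in the sources used here.

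De novo lipogenesis turns surplus carbohydrate into fatty acid. Citrate leaves the mitochondrion and is cleaved to acetyl-CoA, which is carboxylated to malonyl-CoA and built up to palmitate, and the palmitate is then elongated, desaturated and esterified into triglyceride. In liver the genes of the pathway are raised by insulin through SREBP-1c, the product of Srebf1, and by glucose through ChREBP, and they fall in fasting. The liver lobule is zoned from the portal tract (zone 1) to the central vein (zone 3), and β-catenin signalling marks the hepatocytes around the central vein.

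Hepatocyte nuclei were those of clusters in which at least 3 of 10 hepatocyte markers, Alb and Apob among them, stood at least 1.5-fold above the other cell classes and the markers of no other class were raised; their leading genes were often others, and 1 such cluster, described with Scd1, was led by globin genes. They made up 7966, 9675, 7752 and 6823 nuclei in the CD libraries labelled control and oncogene and the LPD libraries labelled control and oncogene, the order used for every set of 4 values below. Their summed UMIs ranged from 18754476 to 54651905, and their median UMIs per nucleus were 4774.5 and 4042 on CD against 2241.5 and 2279 on LPD. Mitochondrial UMIs took 5.76% and 2.69% of the hepatocyte total on CD and 0.245% and 0.273% on LPD, so that depth and mitochondrial RNA separated the diets, and their part in a diet difference cannot be told apart from the diet. Any 2 libraries shared between 16 and 35 barcodes. The human transgene reads went against the labels on CD: 100 transgene UMIs were found in the library labelled CD control, in 86 hepatocyte nuclei and a few others, whereas 0 were found in CD oncogene, 0 in LPD control and 6 in LPD oncogene. Every direction between the CD libraries below is therefore given as labelled, and would turn round if those labels were exchanged. Fewer cells of a kind and less RNA per cell are also not separable in summed counts.

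Promoters are shown for 3 members on which the results turn: Fasn, the synthase itself, Thrsp, whose level followed the other members most closely, and Pnpla3, the member with the widest gap between diets. Each is the 250 bases before the RefSeq start in GRCm38.p6, read 5′ to 3′ on the strand of the gene, with capitals marking CCAAT on either strand, the letters of the box bound by the factor NF-Y.
Fasn, chr11:120824548-120824797, minus strand: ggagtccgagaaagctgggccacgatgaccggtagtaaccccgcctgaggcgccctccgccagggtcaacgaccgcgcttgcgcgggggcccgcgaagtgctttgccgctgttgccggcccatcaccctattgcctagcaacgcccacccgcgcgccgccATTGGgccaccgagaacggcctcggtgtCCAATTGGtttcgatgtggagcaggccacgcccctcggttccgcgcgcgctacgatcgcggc
Pnpla3, chr15:84167566-84167815, plus strand: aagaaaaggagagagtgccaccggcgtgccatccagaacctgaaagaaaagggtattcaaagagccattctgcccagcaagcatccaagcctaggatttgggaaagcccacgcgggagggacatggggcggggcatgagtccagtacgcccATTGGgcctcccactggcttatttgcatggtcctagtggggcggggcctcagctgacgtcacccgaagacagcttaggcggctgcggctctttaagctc
Thrsp, chr7:97417551-97417800, minus strand: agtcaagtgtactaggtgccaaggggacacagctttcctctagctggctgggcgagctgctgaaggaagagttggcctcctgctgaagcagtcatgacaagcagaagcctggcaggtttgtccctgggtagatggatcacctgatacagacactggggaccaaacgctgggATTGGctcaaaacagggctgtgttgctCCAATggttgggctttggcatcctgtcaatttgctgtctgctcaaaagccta
In Fasn the 2 matches nearest the gene overlap, 1 on each strand. The span given below for Thrsp starts, on its strand, at 97417730, upstream of the RefSeq start used here. Its 2 marked matches therefore lie inside that span. Windows were found for 9 of the 10 members, 12 windows in all, and 7 of these 12 held CCAAT on either strand, in 6 members, against 33.8% of 32851 mouse windows of the same length. GGGCGG was present in 5 of the 12 windows, in 4 members, against 32.7% of all windows. The E-box CACGTG was in 0 of the 12 windows against 6.02% of all, and TCACNCCAC was in 0 against 1.05%. These matches describe letters in a short window and say nothing of binding.

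The substrate enzymes came first in the pathway. Acly (chr11:100476353-100528000 in GRCm38, minus strand), the citrate lyase that makes cytosolic acetyl-CoA, stood at 154, 109, 206 and 78.9 UMIs per 1000000 hepatocyte UMIs (CPM). Me1 (chr9:86581371-86695953, minus strand), the cytosolic malic enzyme that supplies NADPH, stood at 418, 267, 544 and 305 CPM. Both were highest in the library labelled LPD control, and the LPD libraries did not lie on one side of the CD libraries for either gene.

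Acaca (chr11:84129672-84401651, plus strand) encodes acetyl-CoA carboxylase 1, which makes the malonyl-CoA used for synthesis, and had 695, 363, 1168 and 800 CPM. Acacb (chr5:114146535-114250761, plus strand), the carboxylase at the mitochondrial surface whose product restrains fatty acid import for oxidation, had 170, 144, 161 and 310.0 CPM. Acaca was above both CD libraries in both LPD libraries, by 1.15- to 3.22-fold over the 4 pairs of libraries, whereas Acacb was apart only in the library labelled LPD oncogene. Counts were per gene without correction for length, so these levels order libraries and not the amounts of different messages.

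Fasn (chr11:120805846-120824547, minus strand), the fatty acid synthase that assembles palmitate, had 148, 54.8, 96.5 and 44.5 CPM. Elovl6 (chr3:129532355-129638495, plus strand), which elongates palmitate to stearate, had 305, 207, 714 and 361 CPM. Scd1 (chr19:44394455-44407879, minus strand), the desaturase that makes oleate and palmitoleate, had 371, 842, 213 and 213 CPM. These enzymes act in sequence on the same chain, yet each ordered the libraries differently. Fasn was lower in each library labelled oncogene than in either control library, Elovl6 was higher in both LPD libraries than in either CD library, and Scd1 was lower in both.

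Srebf1 (chr11:60199089-60222581, minus strand), the gene of the lipogenic transcription factor SREBP-1, had 122, 68.0, 103 and 43.3 CPM. Thrsp (chr7:97412938-97417730, minus strand), which encodes the thyroid hormone responsive protein Spot 14 of lipogenic tissues, had 150.2, 69.7, 163 and 90.9 CPM. Both were lower in each library labelled oncogene than in either control library. Pnpla3 (chr15:84167837-84187236, plus strand), a lipid droplet protein and known target of SREBP-1c, had 5.91, 10.98, 62.6 and 43.2 CPM, with 95% Poisson intervals of 5.23 to 6.65, 10.1 to 11.9, 59.3 to 66.2 and 40.3 to 46.3. The LPD and CD values of Pnpla3 lay far apart. For the other members no bound of a 95% interval lay more than 7.12% from its level; such intervals cover counting error only and not differences between animals.

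**Figure D1:**
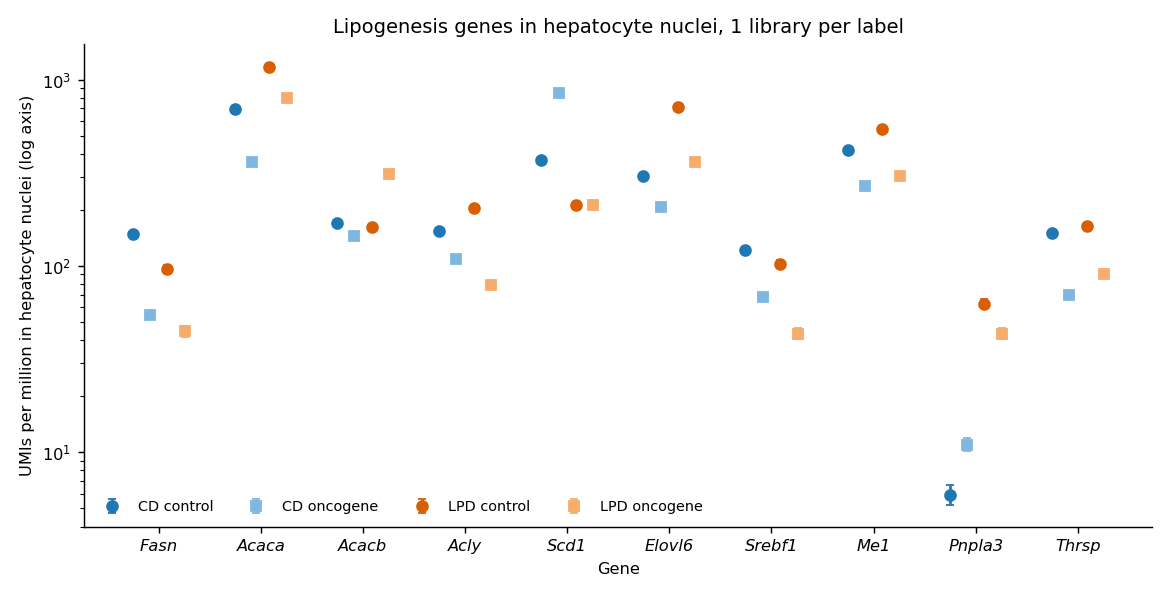
UMIs per 1000000 hepatocyte UMIs (log axis) of each lipogenesis gene in each of the 4 libraries; points are sums over the hepatocyte nuclei of 1 library and bars are 95% Poisson intervals for counting error. Pnpla3 sits at 5.91 and 10.98 in the CD libraries and at 62.6 and 43.2 in the LPD libraries, whereas Fasn sits at 148 and 96.5 in the control libraries and at 54.8 and 44.5 in the oncogene libraries.

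The first comparison asked which of these genes moved with the LPD, and set each LPD library against each CD library, 4 pairs in all, which leaves the injection labels aside. A gene was called when it changed at least 1.5-fold in the same direction in all 4 pairs. Among the 10 members 1 was higher, Pnpla3, against 11.3% of 7241 expressed genes, and 1 was lower, Scd1, against 3.74%, so that each call was a single gene of 10 beside shares of all genes that are not far from it. Pnpla3 was 3.94- to 10.6-fold higher, with log2 ratios of 3.41, 2.51, 2.87 and 1.98 for LPD control over CD control, LPD control over CD oncogene, LPD oncogene over CD control and LPD oncogene over CD oncogene; it entered the table of tested genes only through its LPD libraries. Scd1 was 1.74- to 3.95-fold lower, with log2 ratios of -0.80, -1.98, -0.80 and -1.98. All members passed the filter on low values, at least 20 CPM and 100 UMIs in 1 library.

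The other 8 members were not called. Acaca and Elovl6 were higher in all 4 pairs, but by as little as 1.15-fold and 1.18-fold. Fasn, Acly, Srebf1, Me1, Thrsp and Acacb changed sign between pairs. The log2 ratios of Fasn in the order of pairs above were -0.62, 0.82, -1.73 and -0.30, and those of Thrsp were 0.12, 1.23, -0.73 and 0.38. For both genes the library labelled control was above the one labelled oncogene within each diet. Without the library labelled CD control or without LPD oncogene, 4 members were called (Acaca, Elovl6 and Pnpla3 higher, Scd1 lower); without LPD control 4 were called (Acacb and Pnpla3 higher, Scd1 and Srebf1 lower), and without CD oncogene 3 (Pnpla3 higher, Fasn and Scd1 lower). Pnpla3 and Scd1 were in each of these sets. Leaving out a library leaves fewer pairs to agree, and calls over all genes rose as well. With all pairs 820 were higher and 271 lower of 7241 genes. The counts became 1542 and 415 of 7045 without CD control, and 1198 and 416 of 7118 without LPD oncogene. They were 1119 and 447 of 7064 without LPD control, and 1186 and 480 of 7164 without CD oncogene.

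The scale matters for such counts. The median log2 ratio of all expressed genes was between 0.14 and 0.27 over the pairs, above 0, and 820 genes were higher on LPD and 271 lower; with trimmed-mean (TMM) factors in place of total UMIs the split was 498 higher and 428 lower, with the 2 members called in the same direction. In the lists described further on, TMM factors removed the calls of Ppargc1b (0.34 in the lowest pair) and Lpin2 (0.55), put Tm6sf2 under the filter and added Acsl4 as lower.

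Scd1 signal was not confined to hepatocyte nuclei, and this was measured because RNA set free from broken cells adds UMIs to every droplet. In nuclei of all other cell classes Scd1 stood at 103%, 127%, 198% and 172% of its hepatocyte CPM in the same libraries, whereas the other 9 members stood at 17.3% to 72.7%. The hepatocyte gene Apob stood at 26.9% to 52.0% and Alb at 53.3% to 127%. With each nucleus thinned to 1000 UMIs and shallower nuclei left out, Scd1 was found in 28.9%, 45.7%, 14.2% and 15.2% of hepatocyte nuclei and in 27.5%, 60.8%, 21.4% and 17.8% of the others, so that its share in hepatocyte nuclei was above that in the other classes by a small margin in CD control and below it in the other 3 libraries. These shares do not separate Scd1 of hepatocytes from free RNA, and this holds for each Scd1 value here. The median UMIs of the other classes were 1203, 1193, 826 and 879 per nucleus. Unthinned, the share of hepatocyte nuclei with an Scd1 UMI was 68.8%, 83.5%, 26.2% and 28.2%.

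A hepatocyte cluster of low depth that was led by globin genes (9.04% to 13.7% of hepatocyte nuclei, median 1009.5 to 1182.5 UMIs) held Scd1 at 638, 4413, 2099 and 1990 CPM. Without that cluster Scd1 stood at 363, 738, 133 and 135 CPM and was called lower on LPD by the same rule. With every nucleus thinned to 1000 UMIs it stood at 385, 1075, 274 and 280.2 CPM and was not called, since both pairs with CD control were under 1.5-fold; it also lost the call at 2-fold, in the pericentral zone alone and with the mean of the CPM of single nuclei. In the 2 largest hepatocyte clusters it stood at 384, 597, 123 and 122 CPM and at 333, 495, 74.8 and 75.4 CPM. The part of free RNA in the diet difference of Scd1 was not tested.

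**Figure D2:**
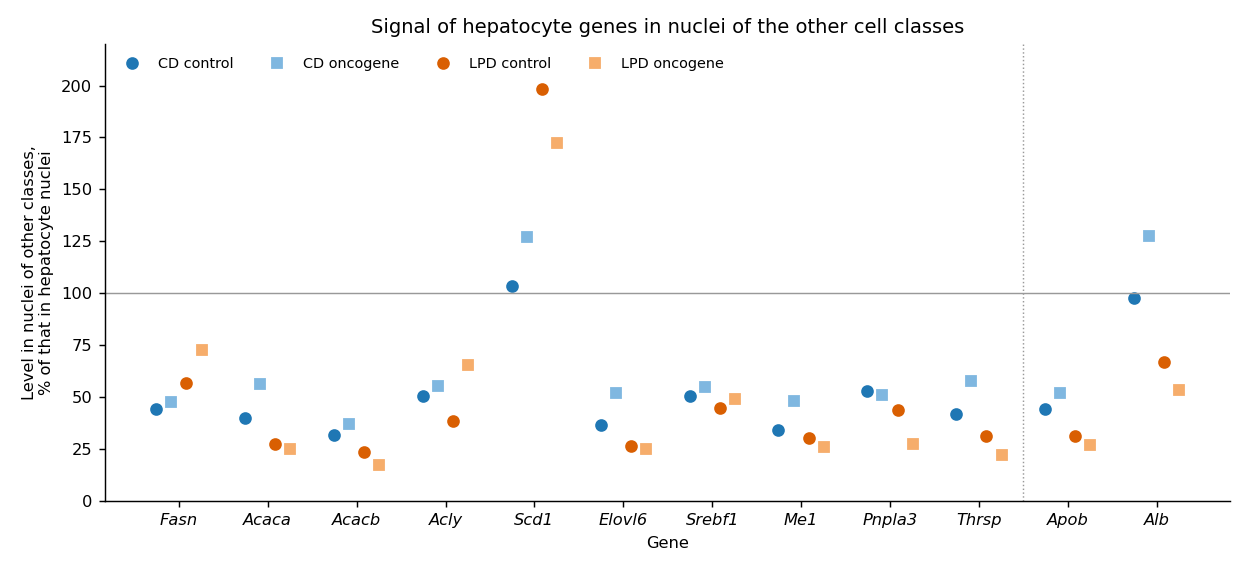
Level of each lipogenesis gene, and of the hepatocyte genes Apob and Alb, in nuclei of all other cell classes as a percentage of the CPM in hepatocyte nuclei of the same library, 1 point per library; the line marks 100%. Scd1 lies at 103% to 198%, above every other lipogenesis gene, which lie at 17.3% to 72.7%.

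For the other members the thinned share of nuclei with a UMI was higher in hepatocytes than in the other classes in all 4 libraries. Pnpla3 was found in 0.570%, 1.15%, 5.83% and 4.55% of thinned hepatocyte nuclei and in 0.225%, 0.615%, 2.48% and 0.736% of the others, and unthinned in 2.86%, 4.47%, 12.3% and 9.13% of hepatocyte nuclei. The LPD libraries were above the CD libraries in both kinds of nuclei, and in hepatocytes also unthinned, although the LPD nuclei were shallower. Fasn was found in 14.3%, 5.61%, 9.54% and 4.90% of thinned hepatocyte nuclei against 3.90%, 2.64%, 4.42% and 3.68% of the others, and unthinned in 47.6%, 23.1%, 20.6% and 11.1% of hepatocyte nuclei. Acaca, the most widely found, reached 47.2%, 28.2%, 61.1% and 50.03% of thinned hepatocyte nuclei against 20.3%, 18.2%, 21.6% and 15.6%.

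The second comparison set the oncogene label against the control label within each diet, as a ratio of 2 libraries called at 1.5-fold. On CD, 9 members passed the filter; 1 was higher in the library labelled oncogene, Scd1 (log2 ratio 1.18), against 7.44% of 6466 genes, and 5 were lower, against 10.1%. The 5 were Fasn at -1.43 (95% counting interval -1.50 to -1.37), Thrsp at -1.11, Acaca at -0.94, Srebf1 at -0.84 and Me1 at -0.65. Elovl6 at -0.56, Acly at -0.50 and Acacb at -0.23 were not called, and Pnpla3, at 0.89, was under the filter. The library labelled CD control is the one that held 100 transgene UMIs, so with the labels exchanged these 5 genes would be the higher and Scd1 the lower.

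On LPD, where transgene UMIs were in the library so labelled, all members passed the filter. Acacb was the 1 member higher in the library labelled LPD oncogene, with a log2 ratio of 0.95, against 4.83% of 6850 genes, and 6 members were lower, against 4.58%. They were Acly at -1.38, Srebf1 at -1.25, Fasn at -1.12 with a counting interval of -1.23 to -0.998, Elovl6 at -0.99, Me1 at -0.84 and Thrsp at -0.84. Acaca at -0.55, Pnpla3 at -0.53 and Scd1 at 0.00 were not called. Over all genes 331 were higher and 314 lower; on CD the split was 481 higher and 654 lower, and with TMM factors 694 higher and 410 lower.

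Fasn, Srebf1, Me1 and Thrsp were called lower in the library labelled oncogene in each diet. They were 4 of the 9 members tested in both diets, where 0.626% of 6075 genes tested in both were called so. No member was higher in both, against 0.955% of genes, and none was called in opposite directions, against 2.02%. Each ratio compares 2 libraries and has no replicate, and on CD its sign depends on which label is right. With the CD labels exchanged, these 4 members and the same 0.626% of genes would be called in opposite directions. With TMM factors Me1 on CD was at -0.51 and was not called, which leaves Fasn, Srebf1 and Thrsp.

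Nuclei that carried a transgene UMI could also be set against their neighbours in the same library. In the library labelled CD control, 80 of the 86 such hepatocyte nuclei lay in the pericentral zone described next, where their median depth was 7469 UMIs against 4038 in 2575 nuclei without one. Within that zone Me1 stood at 754 CPM in nuclei with a transgene UMI and 596 CPM in those without, a log2 ratio of 0.34 with a counting interval of 0.21 to 0.46. Elovl6 stood at 365 against 301 CPM and Acacb at 249 against 212 CPM, with log2 ratios of 0.28 (0.10 to 0.45) and 0.23 (0.01 to 0.44). The intervals of the other 7 members included 0. These are nuclei of 1 library that also differ in depth and may differ in place within the zone. The part of either in the ratios was not tested. In this library Me1 and Acacb rose from the periportal to the pericentral zone, with log2 ratios of 1.21 and 0.56, and Elovl6 was level at 0.03. How many of all genes had an interval without 0 was not counted.

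The third comparison asked where along the lobule each gene lies. Hepatocyte nuclei of each library were ordered by pericentral marker genes such as Glul, Cyp2e1 and Cyp1a2 against periportal markers such as Ass1, Cps1 and Cyp2f2, none of them a member, and split into 3 parts of equal size, called the periportal, middle and pericentral zones. Between 13.6% and 22.9% of a library's nuclei lay within 0.1 score units of a boundary. UMIs of the pericentral and the periportal zone were summed in each library, and the 8 sums were compared with edgeR's quasi-likelihood test with the library as block, the 4 libraries serving as replicates although they differ in diet and injection. Among the members 0 were pericentral, against 7.07% of 13005 genes, and 4 were periportal, against 7.53%.

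Acly had the most firmly periportal level. It fell from the periportal to the pericentral zone from 216 to 88.2 CPM in CD control, from 132 to 73.7 in CD oncogene, from 291 to 92.2 in LPD control and from 110.3 to 41.6 in LPD oncogene. Its log2 pericentral over periportal ratio was -1.34 ± 0.11 (SE, n = 4 libraries, edgeR adjusted p = 0.000445). Pnpla3 fell from 7.40 to 3.28, from 13.1 to 5.93, from 95.04 to 20.2 and from 74.2 to 12.6 CPM, a log2 ratio of -1.89 ± 0.23 (edgeR adjusted p = 0.00183). Both were lower in the pericentral zone in 4 of 4 libraries, and both calls held with any 1 library left out.

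Srebf1 and Acaca passed the threshold narrowly. Srebf1 had a log2 ratio of -0.35 ± 0.09 (edgeR adjusted p = 0.0429), with 142 and 98.0 CPM in the periportal and pericentral zones of CD control but 43.2 and 42.5 CPM in LPD oncogene. Acaca had -0.69 ± 0.19 (edgeR adjusted p = 0.0492), with 729 and 646 CPM in CD control but 1513 and 704 CPM in LPD control. By edgeR with 1 library left out, Acaca had an adjusted p of 0.151 without LPD control and 0.158 without LPD oncogene, and Srebf1 had 0.134 without CD control, 0.151 without CD oncogene and 0.1002 without LPD control.

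Thrsp (log2 ratio -0.54, edgeR adjusted p = 0.0784), Me1 (0.56, 0.117), Fasn (-0.12, 0.316), Scd1 (0.35, 0.496), Acacb (0.23, 0.510) and Elovl6 (-0.17, 0.615) did not pass the test. Fasn was the flattest: its periportal and pericentral zones held 148 and 147 CPM in CD control, 50.8 and 53.3 in CD oncogene, 97.1 and 92.0 in LPD control and 50.4 and 40.3 in LPD oncogene. With all libraries kept, Thrsp was called periportal in 8 of 15 other settings, among them DESeq2 (adjusted p = 0.0323), and Me1 pericentral in 3 of 15. Of the 4 members called in the main test, Acly and Pnpla3 were called in 14 of these 15 settings, Acaca in 13 and Srebf1 in 9. Srebf1 was not called by DESeq2 (adjusted p = 0.0566). Without the library block 0 members were called, since the level of a library then counts as error. Calls over all 13005 genes then fell to 63 pericentral and 29 periportal, from 920 and 979.

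**Figure D3:**
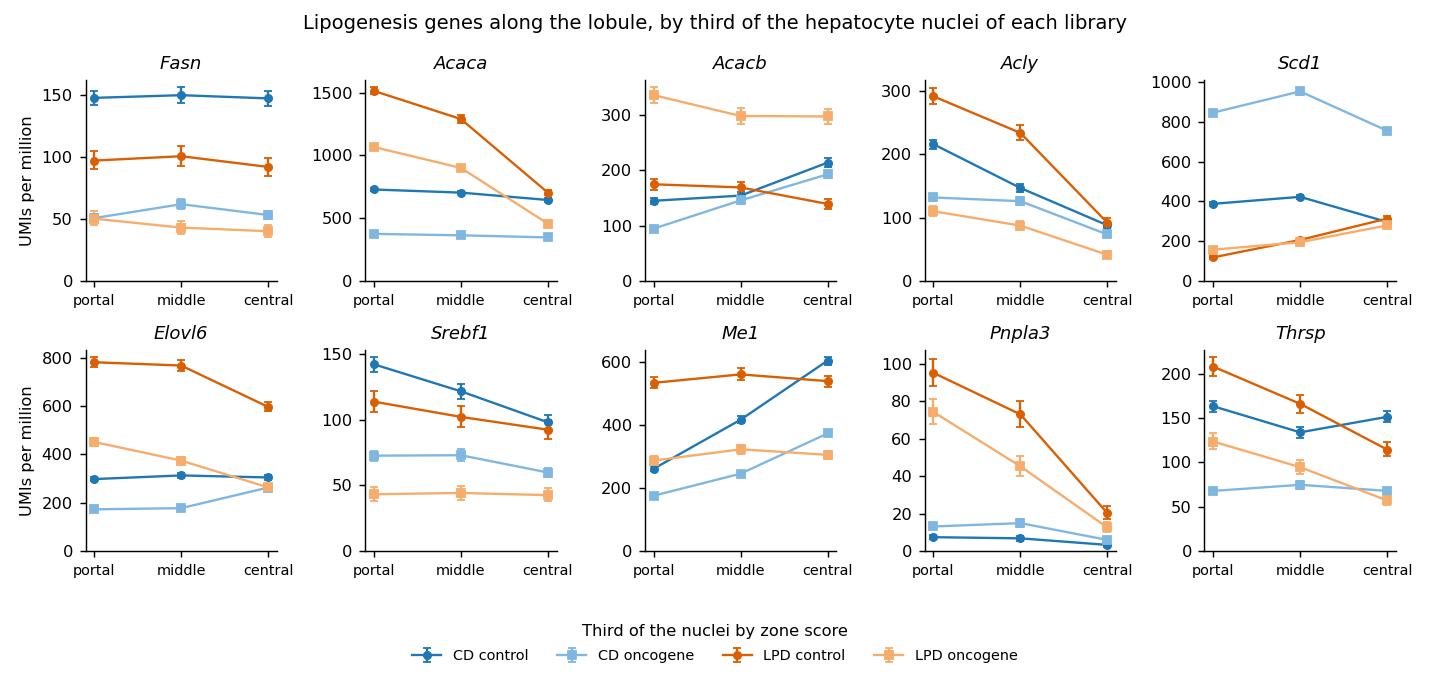
UMIs per 1000000 in the periportal, middle and pericentral zone, each 1 of 3 equal parts of the hepatocyte nuclei, for each lipogenesis gene, 1 line per library, with 95% Poisson intervals for counting error; each vertical axis starts at 0 and has its own range. Acly and Pnpla3 fall toward the central vein in all 4 libraries, Me1 rises in the CD libraries (261 to 605 and 176 to 373) and is level in the LPD libraries (534 to 539 and 287 to 305), and Scd1 rises in the LPD libraries (120 to 314 and 158 to 280).

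The lines of several members differed in slope between diets, and this was tested by an interaction of zone and diet in the same edgeR model, a test added after these values were seen, with 2 libraries per diet that differ in injection label. The difference, LPD minus CD of the log2 pericentral over periportal ratio, was positive for 1 member, against 1.05% of 13005 genes, and negative for 5, against 0.392%.

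Me1 rose toward the central vein on CD, from 261 to 605 and from 176 to 373 CPM, and was level on LPD, at 534 and 539 and at 287 and 305 CPM; the difference was -1.02 ± 0.12 (SE, edgeR adjusted p = 0.0183). Acaca was nearly level on CD, from 729 to 646 and from 376 to 348 CPM, and fell on LPD, from 1513 to 704 and from 1067 to 458 CPM, a difference of -0.94 ± 0.13 (edgeR adjusted p = 0.0197). Thrsp did likewise, from 163 to 151 and from 67.8 to 67.8 CPM on CD and from 208 to 114 and from 123 to 57.1 CPM on LPD, a difference of -0.85 ± 0.12 (edgeR adjusted p = 0.0231). In the periportal zone both LPD libraries were above both CD libraries for Acaca and Me1, and in the pericentral zone this held for neither.

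Acacb rose toward the central vein on CD, from 145 to 214 and from 94.9 to 193 CPM, and fell on LPD, from 175 to 139 and from 336 to 297 CPM, a difference of -0.97 ± 0.16 (edgeR adjusted p = 0.0325). Pnpla3 fell in every library, and more steeply on LPD, by a difference of -1.15 ± 0.18 (edgeR adjusted p = 0.0304). Scd1 went the other way: it was lower in the pericentral zone on CD, 297 against 388 and 755 against 845 CPM, and higher there on LPD, 314 against 119.6 and 280 against 158 CPM, a difference of 1.46 ± 0.19 (edgeR adjusted p = 0.0197).

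Elovl6 (-0.82, edgeR adjusted p = 0.114), Acly (-0.41, 0.342), Srebf1 (0.30, 0.407) and Fasn (-0.14, 0.682) did not pass. The 6 calls kept their direction but not their side of the threshold in every check: with edgeR, 0 of the 6 passed without LPD control (lowest adjusted p of the members 0.0664), 2 without LPD oncogene (Me1 and Scd1), all 6 without CD oncogene, and 8 members passed without CD control. With every nucleus thinned to 1000 UMIs, which evens the depth of the diets, 1 passed, Me1 at -0.88, while the differences of the others kept their sign, at 1.14 for Scd1, -0.77 for Acaca, -0.62 for Acacb, -0.54 for Thrsp and -0.86 for Pnpla3. Over all genes the calls then fell to 16 positive and 9 negative of 10477, from 137 and 51 of 13005. Without the low-depth cluster 3 passed, Acaca, Me1 and Thrsp, and Scd1 had 0.75 with an edgeR adjusted p of 0.0625. Over all genes 30 were then positive and 29 negative of 12913. Zone markers differed between libraries, with medians in the pericentral zone of 58.5, 27.6, 32.0 and 33.8 pericentral and 8.29, 51.1, 44.2 and 24.3 periportal marker UMIs per 10000, an order that does not follow the diet; their part in the interaction was not tested.

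**Figure D4:**
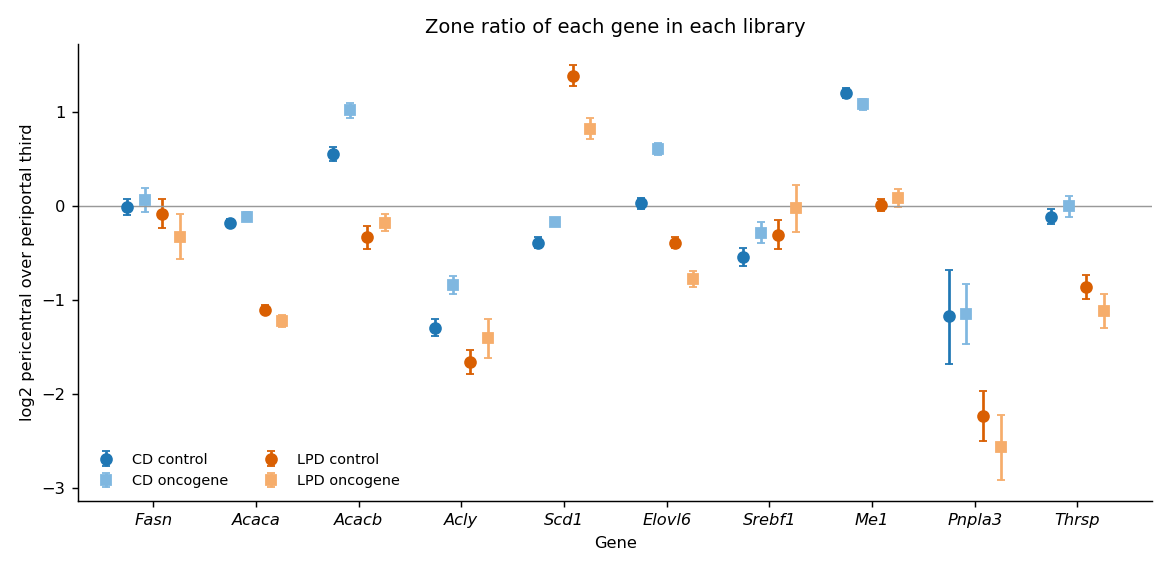
Log2 ratio of the pericentral over the periportal zone for each lipogenesis gene, 1 point per library with 95% counting intervals; values above 0 are higher near the central vein. For Me1, Acaca, Acacb, Thrsp and Pnpla3 both LPD points lie below both CD points, and for Scd1 both lie above; the LPD points also lie below the CD points for Elovl6, Acly and Fasn, which did not pass the interaction test.

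The genes around the pathway were read from 7 lists of other genes chosen by function. Among 20 genes of precursor supply, 16 passed the filter, 4 were higher and 1 lower on LPD by the 4-pair rule, beside 11.3% and 3.74% of all genes; the lower was Acss2, the cytosolic acetyl-CoA synthetase, and Slc2a2, the glucose transporter of hepatocytes, was the other higher gene. Pklr, the liver pyruvate kinase, had 85.4, 48.8, 172 and 332 CPM. Khk, the ketohexokinase that starts fructose use, had 56.5, 60.9, 208 and 122 CPM, and Pdhb, a subunit of pyruvate dehydrogenase, had 45.9, 42.8, 114 and 92.9 CPM. These enzymes bring sugar carbon toward acetyl-CoA, and each was at least 1.995-fold higher in every pair on the CPM + 1 scale.

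Of 15 genes of triglyceride assembly 12 passed the filter, and 4 were higher and 1 lower on LPD, beside the same 11.3% and 3.74%, with a list median log2 ratio of 0.49 against 0.21 for all genes. Lpin1, a phosphatidate phosphatase that also acts as a transcriptional coactivator, had 69.9, 111, 842 and 1629 CPM and was at least 7.50-fold higher in every pair on the same scale. Dgat2, which performs the last step of triglyceride synthesis, had 167, 188, 527 and 385 CPM, and Tm6sf2, which takes part in lipidation of secreted lipoproteins, had 3.35, 3.44, 20.03 and 13.9 CPM. Lpin2, a relative of Lpin1, was the other higher gene, and Gpam, the acyltransferase that starts glycerolipid synthesis, was the lower, at 561, 511, 300.3 and 311 CPM. Tm6sf2 passed the filter only through LPD control, at 20.03 CPM, so it entered the count of 4 by way of a library in which it was high. Pnpla3 likewise passed only through its LPD libraries. With TMM factors 2 genes of this list were higher and 1 lower.

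Of 16 genes of lipid droplets and lipolysis 9 passed, 2 were higher and 0 lower, beside 11.3% and 3.74% of all genes. The higher were Hsd17b13, a droplet protein, at 182, 178, 474 and 375 CPM, and Mgll, the monoglyceride lipase, at 239, 168, 484 and 776 CPM. Among 25 regulators 23 passed, 2 were higher and 1 lower, which is not far from the shares of all genes. Nr1h4, the bile acid receptor FXR, had 808, 708, 1327 and 1486 CPM, and Ppargc1b, a coactivator of SREBP-1c, had 99.8, 137, 221 and 209.7 CPM, whereas Pparg had 53.3, 52.4, 17.4 and 23.03 CPM. In the list of kinases and allosteric control 18 of 21 passed, 1 was higher and 0 lower, beside the same 11.3% and 3.74%. The higher was Prkag1, a subunit of the energy-sensing kinase AMPK, at 31.3, 29.6, 61.9 and 60.3 CPM.

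Elongation and desaturation apart from the members had 14 of 18 genes past the filter, 0 higher and 1 lower, beside 11.3% and 3.74% of all genes. The lower was the acyl-CoA synthetase Acsl5, at 208, 199, 78.5 and 80.4 CPM. Uptake and binding had 7 of 12 past the filter, 0 higher and 1 lower, beside the same shares. The lower was the lipoprotein lipase Lpl, at 9.54, 53.1, 1.22 and 1.60 CPM, a gene that passed only through CD oncogene. The members' own median was 0.27, near the 0.21 of all genes.

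**Figure D5:**
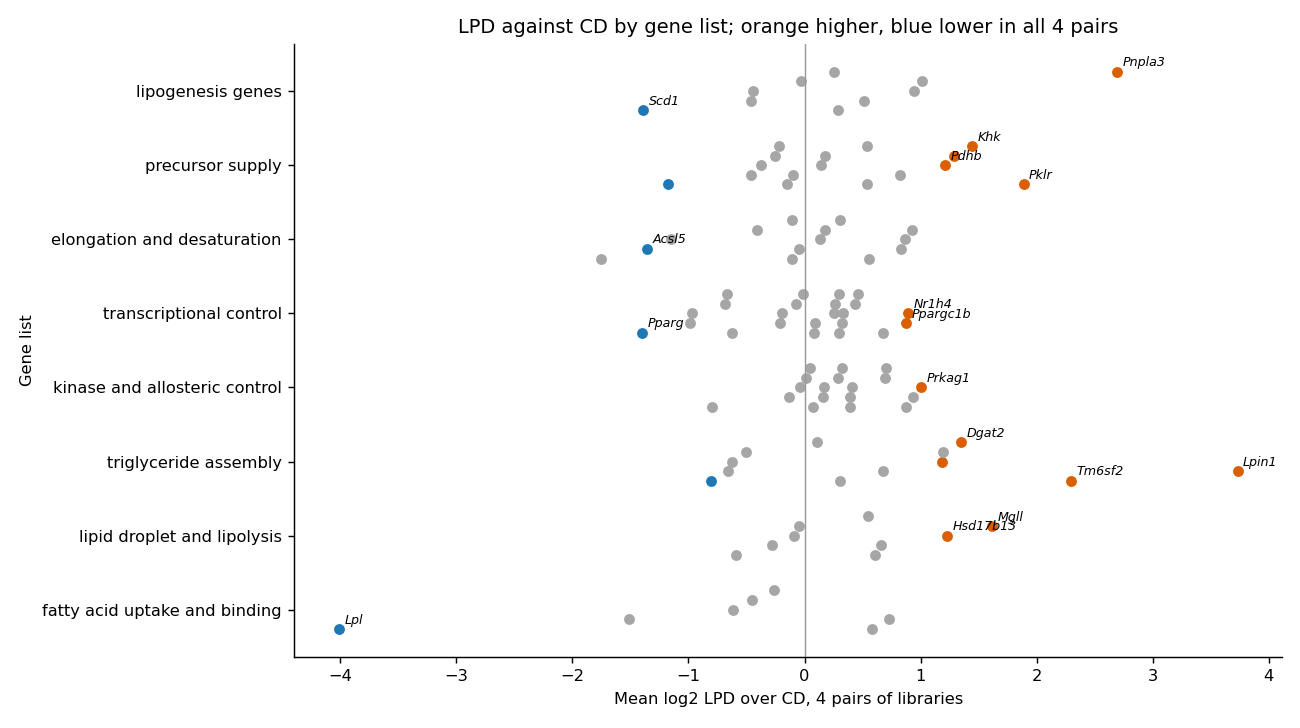
Mean over the 4 pairs of the log2 LPD over CD ratio for each gene of the lipogenesis genes and of 7 other lists that passed the filter on low values; orange points were at least 1.5-fold higher and blue at least 1.5-fold lower in all 4 pairs, and grey points were not called. Triglyceride assembly has 4 orange points and 1 blue of 12, and the lipogenesis genes 1 of each of 10, where 11.3% and 3.74% of all genes were called. Tm6sf2 passed the filter only through LPD control and Pnpla3 only through the LPD libraries. The lists were not tested against each other.

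Within the group, levels were compared over 12 sums, the 3 zones of each of 4 libraries, which is a description only because 3 sums share a library. Thrsp followed the mean of the other members most closely, with Pearson r = 0.94, then Acaca at 0.81, Elovl6 at 0.77 and Acly at 0.64. Fasn and Srebf1 followed each other, with r = 0.92, as did Acaca and Elovl6, with 0.89. Scd1 had r = -0.75 against the mean of the others, from -0.90 with Acaca and -0.82 with Elovl6 to -0.10 with Fasn and 0.04 with Srebf1, and Acacb had -0.23 against that mean. Among 5269 genes outside the lists with at least 20 CPM in each library, those most like the mean of the members were Enpep (0.93), Fam20c (0.93), Gnpnat1 (0.92), Eepd1 (0.92) and Gtf2e1 (0.91). Eepd1 stood at 147, 91.5, 173 and 99.9 CPM, the same order of libraries as Thrsp, and Enpep, Fam20c and Gnpnat1 had that order too. These genes were picked for following the mean of the members, so a shared order is part of the choice.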

How the data were processed

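Nuclei were isolated from frozen liver and sequenced with a droplet 3′ method; per the file headers, the authors' deposited matrices hold UMI counts per gene and barcode from Cell Ranger 9.0.1, and the submitters' processing notes name Seurat 5. The reference was mm10 with human c-MET and CTNNB1 added. Whether intronic reads were counted, and by strand, is not given in the sources used here; Acaca, Elovl6, Srebf1 and Me1 overlap counted genes of the opposite strand (Gm11437, Gm35986, Rai1 and A330041J22Rik), so their values carry that uncertainty. No column of another series was present.

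Nuclei with 200 to 7000 genes and at most 21% mitochondrial UMIs were kept (10397, 12552, 9825 and 10103 of 11063, 13014, 9826 and 10107 barcodes). Counts were log-normalized to 10000 UMIs, reduced to 50 components and clustered (Louvain, resolution 0.4) after library correction; clusters holding hepatocyte markers beside those of another class were set apart as doublets, and no doublet caller was run. Classes were named from marker lists. Levels are UMIs per 1000000 of summed hepatocyte UMIs, and ratios called at 1.5-fold used a pseudocount of 1 CPM, whereas printed log2 ratios have none. Thinning drew 1000 UMIs per nucleus. Intervals are exact at 95% and cover counting error only. Zone sums were tested with edgeR 4.0.16 (TMM factors, filterByExpr, library as block, Benjamini-Hochberg adjustment over all 13005 genes, threshold 0.05), checked on simulated data; DESeq2 1.42.0 was an alternative. Other tools were Python 3.11.15, scipy 1.17.1, python-igraph 0.11.9, scikit-learn 1.9.0 and R 4.3.3.

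Members and lists were chosen with earlier results of these data known. All members are named, with up to 3 genes per other list called in all 4 pairs and having the largest smallest change, and the 5 genes most correlated with the members. Alternatives changed the pseudocount, filters, scale, clustering, zone score, nuclei and libraries; leaving out the low-depth cluster, leaving mitochondrial UMIs out of the scale and the interaction of zone and diet were added after the data were seen.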

Additional observations from a re-analysis of the deposited data

Results flagged for a closer look

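The library labelled CD control held 100 UMIs of the human transgenes, a signal outside the mouse gene counts, where the library labelled CD oncogene held 0.

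For 2 members the oncogene over control log2 ratio had opposite signs in the 2 diets, beyond the counting interval in each. For Acacb it was higher on LPD than on CD by 1.18, and for Pnpla3 the LPD minus CD difference was -1.43. With 1 library per group these differences were not tested, and both use the CD labels that the transgene UMIs contradict. How many of all genes had such opposite signs was not counted. At 1.5-fold, 0 of the members tested in both diets were called in opposite directions, against 2.02% of 6075 genes. Pnpla3 was under the filter on CD.

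The log2 pericentral over periportal ratio differed between diets in the interaction test for 6 members, with LPD minus CD values of -1.02 for Me1, -0.94 for Acaca, -0.97 for Acacb, -0.85 for Thrsp, -1.15 for Pnpla3 and 1.46 for Scd1. With edgeR, the adjusted p over the alternatives that kept all 4 libraries ranged up to 0.0483 for Me1, 0.0603 for Acaca, 0.198 for Acacb, 0.308 for Thrsp, 0.826 for Pnpla3 and 0.133 for Scd1.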

How the results depend on the processing

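No paired analysis was possible because each group had 1 library, so diets and injections could not be paired; the zones were compared within libraries, with the library as block. The diet count of 2 members became 1, Pnpla3, with Scd1 no longer called, under the mean of the CPM of single nuclei, at 2-fold, in the pericentral zone only and with every nucleus thinned. It lay between 3 and 4 with 1 library left out, where fewer pairs had to agree and calls over all genes also rose. The oncogene label counts of 6 on CD and 7 on LPD each became 3 at 2-fold. The zone count of 4 became 0 without the library block and lay between 2 and 3 with 1 library left out. Zone calls over all genes, 920 pericentral and 979 periportal of 13005, fell as well. They were 63 and 29 of 13005 without the block, 650 and 691 of 12231 without CD control, and 569 and 586 of 12273 without CD oncogene. Without LPD control they were 743 and 813 of 13702, and without LPD oncogene 707 and 722 of 13710. The count of 6 for the interaction of zone and diet became 3 with Glul UMIs as the split, 1 with every nucleus thinned and 2 under the stricter nuclei filter. With the Glul split the members called were Scd1, Me1 and Elovl6, and Elovl6 was not among the 6. The interaction count became 3 with clustering without library correction and 3 without the low-depth cluster. Over all genes its calls, 137 positive and 51 negative of 13005, also moved. They were 136 and 60 of 13541 with the Glul split, and 16 and 9 of 10477 when thinned. The stricter filter gave 8 and 11 of 12520, uncorrected clustering 29 and 30 of 13015, and leaving out the low-depth cluster 30 and 29 of 12913. The cause of these changes was not tested, beyond fewer libraries or UMIs entering. Zone log2 ratios that turned sign, none of them called, were Fasn at 0.0024 when thinned, Acacb at -0.0020 without CD oncogene (up to 0.42 with 1 library left out), Elovl6 at 0.027 without LPD oncogene (down to -0.40), and Scd1 at -0.13 with uncorrected clustering and -0.16 without the low-depth cluster; the interaction of Fasn was 0.028 with the Glul split. Of the member counts under settings that kept all libraries, 60 stayed within 1.5 times and 12 did not. Pnpla3 in the CD libraries, at 275 and 600 UMIs, limits its zone values most, with bounds up to 32.6% from a level.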

Other observations

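Outside the lipogenesis genes, 3 of 122 tested genes of the other lists (2.46%) passed the interaction test of zone and diet, against 1.45% of all genes, and are named here after their values were seen. Slc13a5, the citrate importer of the plasma membrane, had an LPD minus CD difference in log2 pericentral over periportal ratio of 2.14 (edgeR adjusted p = 0.0348); it was under the filter on low values, with 67 UMIs in LPD control. Aacs, which makes acetoacetyl-CoA in the cytosol for lipid synthesis, had -1.37 (edgeR adjusted p = 0.00622), and Dbi, the acyl-CoA binding protein, had 0.81 (edgeR adjusted p = 0.0341).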
